A study of Oryza sativa with 18 samples.

Results

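Isolated open regions are stretches of accessible chromatin that stand alone, with no other listed open region for a long way on either side. They were selected on 1 measured value, the distance to the neighbouring regions in a list of open regions from rice leaves. A region on chromosomes 1 to 12 was called isolated when the gap to the region before it and the gap to the region after it were both 30000 bp or more, and the first and last region of each chromosome were left out. Of 29831 chromosomal regions, 576 met the rule, which is 1.93%. The whole list holds 29978 regions, and the 147 on 4 other sequences were not used. The gaps chose the members, so gap lengths and places on the chromosomes are given below as a description, without a test.

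Chromatin that a transposase can enter is mostly free of nucleosomes, and in plant genomes it is found mainly at gene promoters and at distal regulatory elements. Where genes are close together, open sites are close together too. Plant chromosomes also carry long blocks rich in repeats and poor in genes, above all around the centromeres, where most DNA is packed into compact heterochromatin. An open site inside such a block can lie at a solitary gene or regulatory element, or at a repeat. Which of these the isolated regions are was not analysed here, because the list names no genes and the sources used here do not give the genome build of its coordinates.

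The list comes from ATAC-seq, which inserts sequencing adapters into accessible DNA, on nuclei of the second leaf of 14-day-old plants of the rice variety Azucena. The plants grew in hydroponic culture at 30 °C. There were 18 libraries in 9 groups of 2: controls kept at 30 °C and sampled at 0.5, 2 and 4 h; plants moved to 40 °C and sampled at 0.5, 2 and 4 h; heat recovery, with 2 h at 40 °C followed by 2 h at 30 °C; dehydration, with roots in air for 2 h; and dehydration recovery, with 1.5 h in air followed by 2 h in liquid. All groups share the variety, the leaf and the growth conditions before the stress. The open regions form 1 list for all libraries, so how the isolated regions differ between treatments could not be examined, there is no spread between replicates, and sequencing depth cannot be read from the list. The 12 chromosomes stand below as the units of comparison. They are parts of 1 list and not biological replicates, and a p over them says nothing about variation between plants.

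The summed width of the isolated regions was 129.7 kb, which is 1.66% of the open base pairs on the 12 chromosomes. Together with the gaps on both sides they took up 71.0 Mb. This is 19.1% of the 12 chromosomes, whose length, counted to the end of the last listed region, is 372.8 Mb. Open base pairs made up 0.183% of these stretches and 2.55% of the remaining length, a contrast that the gap rule sets in advance. The smaller of the 2 gaps had a median of 41.3 kb with quartiles of 34.7 and 55.5 kb, and the larger gap a median of 69.6 kb with quartiles of 51.2 and 105.4 kb. The smaller gap was below 40 kb for 268 regions, from 40 to 60 kb for 188, from 60 to 100 kb for 92 and at least 100 kb for 28.

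The most isolated region of the list lay on chromosome 12, from 16595918 to 16596180, with 396.0 kb before it and 391.9 kb after it. It was 263 bp wide with a peak value of 16. The peak value is a whole number from 10 to 18 that the authors gave each region without defining it, and its highest value equals the number of libraries. The second most isolated region lay on chromosome 4, from 2869472 to 2869655, with gaps of 357.8 and 381.3 kb, a width of 184 bp and a peak value of 17. The third was the neighbour of the first on chromosome 12, from 16199465 to 16199949, and it was 485 bp wide with a peak value of 18. Thus 3 regions in the emptiest surroundings reached peak values in the upper part of the scale. The other two of the 5 most isolated regions began at 3250979 on chromosome 4 and at 7111086 on chromosome 10. Both were 72 bp wide, the smallest width in the chromosomal list, and both had a peak value of 12.

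The 5 just inside it had smaller gaps from 30004 to 30083 bp, widths of 75, 329, 214, 193 and 212 bp, and peak values of 13, 18, 17, 14 and 17. The 5 just outside had smaller gaps from 29990 down to 29840 bp, widths of 150, 582, 378, 144 and 122 bp, and peak values of 14, 18, 18, 12 and 12. The widths of both sets overlapped.

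**Figure D1:**
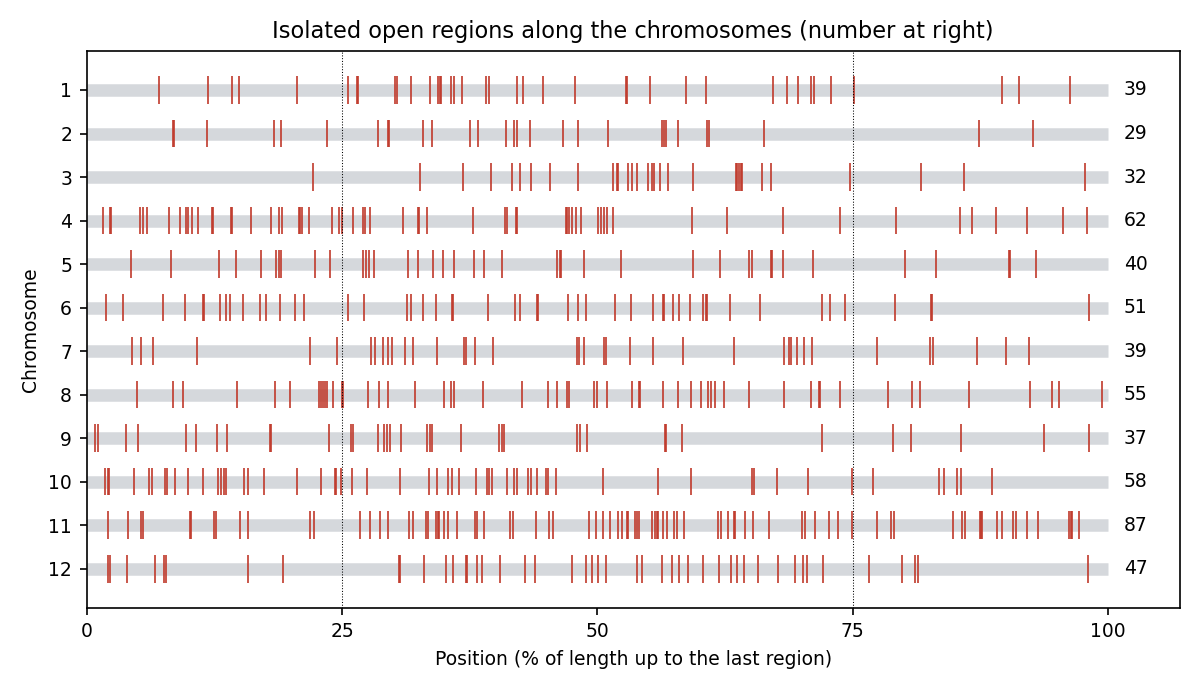
Places of the 576 isolated regions (red ticks) on the 12 chromosomes, as percent of the chromosome's length to its last region (grey bars), with the number per chromosome at the right and dotted lines at 25% and 75%. Chromosome 11 carries 87, chromosome 2 carries 29, and on chromosome 3 only 4 lie outside the inner 50%.

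Isolated regions were present on every chromosome, and chromosome 11 had both the most and the highest share. It held 87, or 5.60% of its regions, which is 3.00 per Mb. By share, chromosome 10 followed with 3.74% (58 regions) and chromosome 12 with 2.84% (47 regions). Chromosomes 4 and 8 held 62 and 55, or 2.63% and 2.60%. The lowest shares were on the chromosomes where regions are densest, with 29 on chromosome 2 (0.851%), 32 on chromosome 3 (0.871%) and 39 on chromosome 1 (0.922%). Chromosomes 5, 6, 7 and 9 held 40, 51, 39 and 37. The mean over chromosomes was 48.0 ± 16.1 isolated regions (SD, n = 12 chromosomes).

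Within chromosomes, isolated regions were most frequent in the middle and least frequent toward the higher-coordinate end. Of regions in the inner 50% of the length, 2.86% were isolated (366 of 12809), against 1.23% in the outer 25% at each end (210 of 17022). Taken per chromosome, the inner share was 2.65 times the outer share (mean log2 ratio 1.40 ± 0.90, SD, n = 12) and was higher on 11 of 12. The contrast was widest on chromosome 3, with 28 isolated regions inside and 4 outside, and on chromosome 12, with 34 and 13. Chromosome 4 was the exception, at 29 inside and 33 outside. In steps of 10% of the length, the isolated share was 1.62% in the first step, highest between 30% and 40% of the length with 4.07%, and lowest in the last step with 0.710%. Sparse stretches lie where regions are few, so this restates the uneven spread of the list. The outermost Mb of either end held 20 isolated regions among its 2205 (0.907%), beside 1.93% of all chromosomal regions. The part of chromosome 4 below 17 Mb held 45 among 575 (7.83%), and the lower 50% by length of chromosome 10 held 44 among 497 (8.85%).

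**Figure D2:**
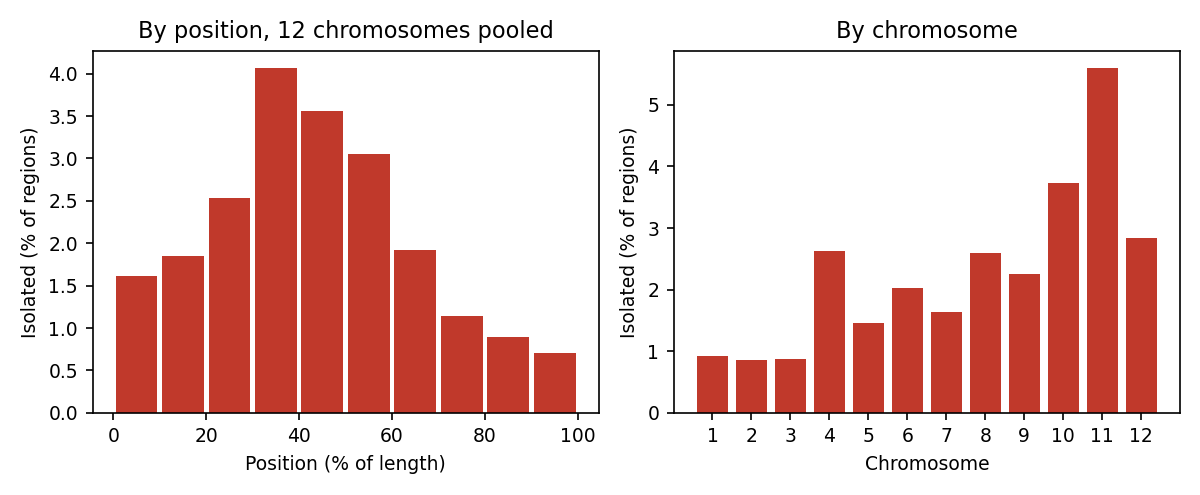
Percent of open regions that were isolated, in steps of 10% of the chromosome length with the 12 chromosomes pooled (left) and by chromosome (right). The share is highest, 4.07%, between 30% and 40% of the length and lowest, 0.710%, in the last step, and chromosome 11 stands highest at 5.60%.

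Some isolated regions stood next to each other in the list. Of 1152 neighbours flanking the members, 282 (24.5%) were isolated themselves. After a gap of 30000 bp or more the next gap was as long again in 18.2% of cases (576 of 3160), against 10.6% of all gaps (3163 of 29819). Thus 244 members lay in 103 runs of 2 or more, and 332 stood as single isolated regions between non-isolated ones. Beyond the flanking neighbours the next region followed within 1000 bp in 233 of 1152 cases (20.2%), while 27.6% of all gaps were that short. The 282 isolated neighbours could not be among the 233, because the rule sets the gap beyond them at 30000 bp or more. Part of this difference thus follows from the rule. Members in runs and single members had median widths of 192 and 195.5 bp and reached the peak value of 18 in 21.3% and 21.1% of cases.

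The longest runs held 5 isolated regions, and there were 2 of them. The run on chromosome 3, from 23140165 to 23341824, had widths of 228, 270, 231, 235 and 291 bp with peak values of 16, 17, 16, 15 and 15, so its members resembled each other closely. Counting its outer gaps, it held 1255 open bp in 278.7 kb. The run on chromosome 8, from 6471574 to 6686885, was mixed, with widths of 387, 230, 124, 309 and 92 bp and peak values of 18, 16, 12, 18 and 14. A run of 4 on chromosome 4, from 2869472 to 3536608 and picked out after its values were seen, filled the longest stretch among the runs of 4 or 5. Its 624 open bp lay in 1063 kb.

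The 1 Mb bin with the most isolated regions was on chromosome 11, from 16000001 to 17000000, where 9 of 31 regions were isolated. Their widths, in order of position, were 237, 281, 137, 201, 135, 72, 238, 74 and 295 bp, and their peak values were 18, 14, 12, 13, 18, 14, 16, 13 and 16. Both narrow and wide, low and high regions thus occurred side by side in this bin. On the same chromosome, 7 each lay in the bin that starts at 9000001 and in the bin that starts at 15000001. Isolated regions were nevertheless spread widely, with at least 1 in 265 of 378 bins. Bins that held one had a median of 69 regions and bins without one had 105. Of 111 bins with more than 100 regions, 43 still held an isolated region, 55 in all.

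Isolated regions had a median width near that of other regions, and few of them were very wide. The median was 194 bp (quartiles 117.5 and 280.25 bp), against 206 bp (quartiles 111 and 339 bp) for the 29255 other regions. The lower quartiles were thus close, and the upper quartile of the isolated regions was lower. At the 90th percentile the widths were 407 and 518 bp. Widths over 500 bp occurred in 28 isolated regions (4.86%) and in 10.8% of the others. Of the 576, 2 were wider than 1000 bp (0.347%), where 1.15% of all chromosomal regions were.

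The 5 widest isolated regions were all under 1400 bp long, while the widest other region had 4797 bp. The widest, 1389 bp, lay on chromosome 6, from 11154030 to 11155418, almost midway between neighbours 48.9 kb away on either side. The next was 1101 bp on chromosome 8, from 15353588 to 15354688, with gaps of 69.3 and 36.6 kb. Both had a peak value of 18. The third, on chromosome 11 from 27945454 to 27946326, was 873 bp wide with a peak value of 16. The remaining ones were 818 bp wide on chromosome 1 (20662370 to 20663187) and 801 bp wide on chromosome 4 (14531855 to 14532655), both with a peak value of 18. The region on chromosome 4 had 395.3 kb of sequence without a listed region before it.

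The median width did not pass the test between isolated and other regions. By chromosome, the medians of isolated regions ran from 145 bp on chromosome 2 to 225 bp on chromosome 1, and those of other regions from 194 to 213 bp. Isolated regions were narrower on 9 of 12 chromosomes, and the exceptions were chromosomes 1, 3 and 11. The ratio of medians was 0.94 (mean log2 ratio -0.091 ± 0.17, SD, n = 12; exact permutation test that flips the sign of each chromosome's difference, two-sided p = 0.0635, Benjamini-Hochberg adjusted over 5 quantities 0.159). The 95% interval of the ratio, from the same test, ran from 0.87 to 1.00. When the mean of log2 width replaced the median, isolated regions were 0.92 times as wide, narrower on 11 of 12 chromosomes (exact sign-flip p = 0.00146, adjusted 0.00732). The ratio of medians also passed after merging regions less than 150 bp apart (mean log2 ratio -0.19, exact sign-flip p = 0.00244, adjusted 0.0122). Merging widens regions with close neighbours by construction, so this setting is no independent support. It passed as well without regions under 100 bp (-0.19, exact sign-flip p = 0.000977, adjusted 0.00244). That setting selects on the width that is tested and also changes the gaps, so that 718 regions were isolated. The call therefore rests on such choices, and the cause was not tested.

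Widths under 150 bp, about the length of DNA on a nucleosome, made up 35.8% of isolated regions (206 of 576) beside 35.5% of all chromosomal regions. The difference per chromosome was 0.64 percentage points ± 6.22 (SD, n = 12), with a 95% interval from -2.91 to 4.73, and was positive on 6 of 12 (exact sign-flip p = 0.774, adjusted 0.774). Chromosome 2 had the highest share, 51.7% of its 29 members, and chromosome 3 the lowest, 28.1% of 32. Exactly 72 bp was the width of 39 isolated regions (6.77%) and of 6.52% of all. Set against the 2942 regions with both gaps under 1000 bp, of which 42.0% were under 150 bp, isolated regions were less often narrow (mean difference -6.28 percentage points, negative on 11 of 12 chromosomes, exact sign-flip p = 0.00488, adjusted 0.0244). Of the 5166 regions with exactly 1 gap of 30000 bp or more, 34.2% were under 150 bp. Against these the mean difference was 2.06 percentage points, positive on 9 of 12 chromosomes, and did not pass (exact sign-flip p = 0.355, adjusted 0.386).

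Peak values of isolated regions spanned nearly the full scale. The mean was 15.28, against 15.34 for other regions, and the median was 15 in both. The difference per chromosome was -0.083 ± 0.27 (SD, n = 12), with a 95% interval from -0.26 to 0.091, and was negative on 7 of 12 (exact sign-flip p = 0.309, adjusted 0.386). A peak value of 18 was reached by 122 isolated regions (21.2%), beside 22.3% of all chromosomal regions. That difference was -1.91 percentage points ± 5.71 (SD, n = 12), with a 95% interval from -5.60 to 1.80 (exact sign-flip p = 0.263, adjusted 0.386). By chromosome the isolated share at 18 ran from 13.5% on chromosome 9 to 27.5% on chromosome 5, and that of other regions from 19.1% to 26.8%. At the low end, 0 of 576 had a peak value of 10, and so had only 13 other regions (0.0444%). A limit of 3 in 576, which treats regions as independent, allows a share of up to 0.521%. That lies above the share of other regions, so the 0 does not set the isolated regions apart. A peak value of 11 was found in 12. The values 10 and 11 together made up 2.08%, beside 1.58% of all chromosomal regions. The classes from 12 to 17 held 47, 79, 88, 76, 75 and 77 isolated regions.

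Among regions with the highest peak value, the isolated ones were the narrower. At 18 their widths had a median of 333 bp (quartiles 257.25 and 439.75 bp), against 433 bp (quartiles 321 and 596.5 bp) for the 6523 others, which is 23.1% less. The isolated median was the lower on 12 of 12 chromosomes. The gap was largest on chromosome 2, where 4 isolated regions had a median of 226.5 bp against 442.5 bp, and smallest on chromosome 10, where 15 had 378 bp against 404.5 bp. The mean log2 ratio was -0.38 ± 0.24 (SD, n = 12). Within the 1 Mb bins that held isolated regions at 18, the other regions at 18 had a median of 411 bp (n = 1381). Regions at 18 with exactly 1 gap of 30000 bp or more had 392.5 bp (n = 1166), and those with both gaps under 1000 bp had 481.5 bp (n = 670). The class at 18 was singled out after its values were seen, so no test is given for it.

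**Figure D3:**
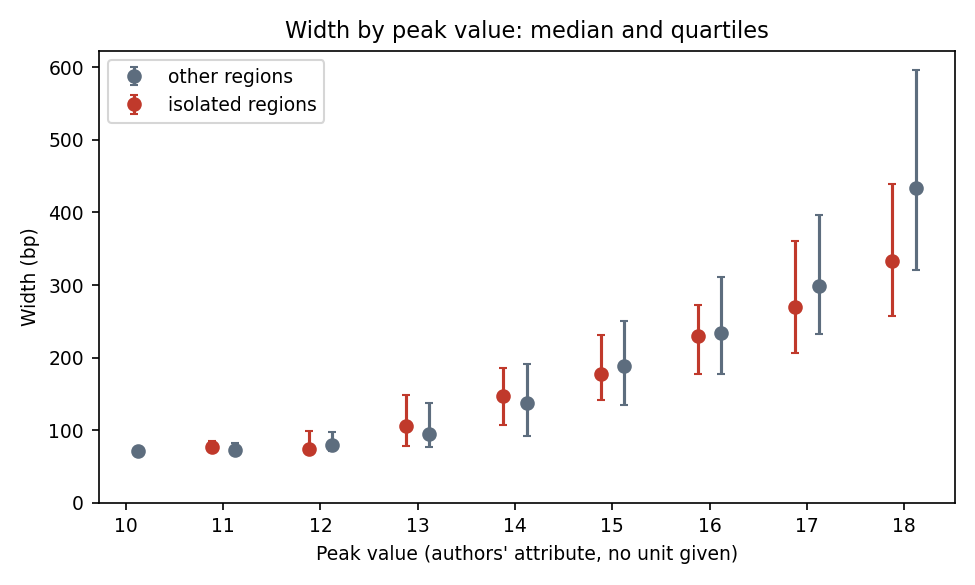
Width in bp by peak value for isolated (red) and other (grey) regions, as median (points) and quartiles (bars). The medians lie close together up to 16 and part at 18, with 333 bp for isolated and 433 bp for other regions, and the quartile ranges overlap in every class that holds isolated regions.

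In the other classes of peak value the medians were closer and their order changed. At 17 the isolated regions had a median of 270 bp against 299 bp, at 16 of 230 against 234 bp and at 15 of 178 against 189 bp. At 14 and 13 the isolated regions were the wider, with 147 against 137 bp and 106 against 95 bp. Averaged over the classes with the isolated regions as weights, the ratio of widths at equal peak value was 0.96 (mean log2 ratio -0.056 ± 0.094, SD, n = 12) and below 1 on 8 of the 12 (exact sign-flip p = 0.061, adjusted 0.159). Its 95% interval ran from 0.92 to 1.00. With the mean of log2 width it was 0.94 and passed (exact sign-flip p = 0.00391, n = 12 chromosomes, adjusted 0.00977). Width followed peak value among isolated regions almost as closely as elsewhere, with a Spearman rho of 0.76 over 576 regions and 0.80 over the others, given as a description.

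**Figure D4:**
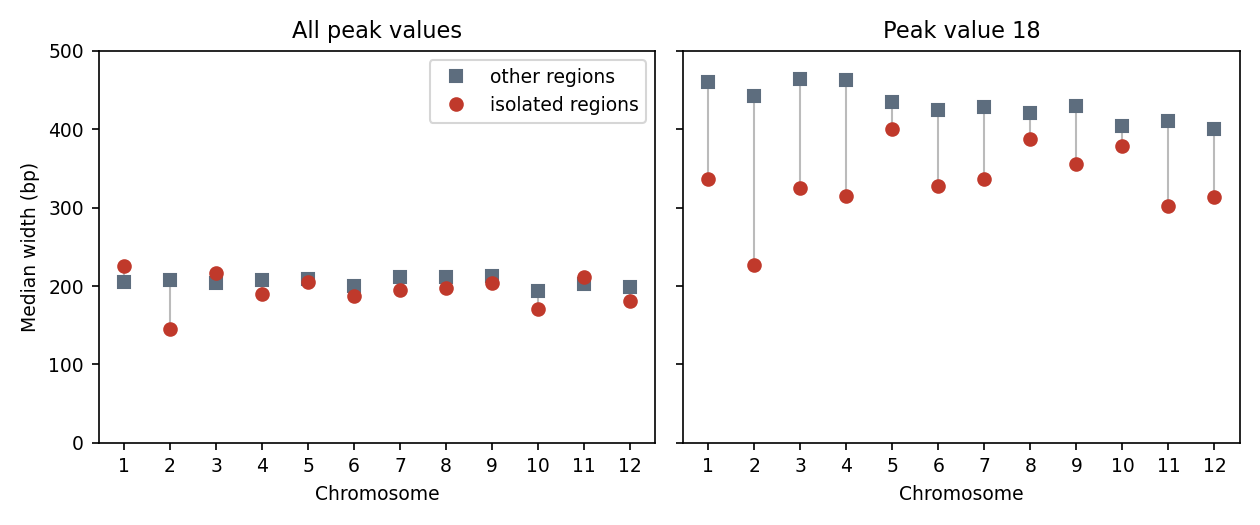
Median width in bp of isolated (red circles) and other (grey squares) regions on each of the 12 chromosomes, for all peak values (left) and for the peak value of 18 (right). On the left the medians cross, with isolated regions narrower on 9 of 12 chromosomes. On the right the isolated median is the lower on 12 of 12.

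A few isolated regions combined the highest peak value with a small width. There were 4 at 18 that were narrower than 150 bp, of 130 such regions on all chromosomes (3.08%). Of all chromosomal regions, 1.93% were isolated. One lay on chromosome 2 (13759209 to 13759323), one on chromosome 3 (19976396 to 19976467), one on chromosome 6 (18949825 to 18949896) and one on chromosome 11 (16342466 to 16342600). Those on chromosomes 3 and 6 were 72 bp wide, and the deposited peak position was the first base in both. The region on chromosome 3 had 249.4 kb before it and 151.1 kb after it. These 4 were chosen after their values were seen.

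Wide regions were most frequent where neighbours were closest and became fewer over most classes of distance. Sorted by the smaller of the 2 gaps, regions with a neighbour less than 150 bp away were wider than 1000 bp in 2.57% of cases, those at 1000 to 2000 bp in 1.01%, those at 8000 to 16000 bp in 0.534%, those at 16000 to 30000 bp in 0.215% and those at 30000 to 60000 bp in 0.439% (2 of 456). Of the 120 regions with at least 60000 bp on both sides, 0 were that wide. A limit of 3 in 120, which treats regions as independent, allows a share of up to 2.50%. That lies above the 1.15% of all chromosomal regions. The median width of regions with a peak value of 18 was 469 bp in the closest class, 402.5 bp at 8000 to 16000 bp, 336.5 bp at 30000 to 60000 bp (n = 94) and 275.5 bp at 60000 bp or more (n = 28). The class at 1000 to 2000 bp broke this order, with 466 bp. These classes were set after the list had been seen and carry no test.

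The share of regions at 18 was 22.6% in the closest class, highest at 500 to 1000 bp with 24.1%, lowest at 16000 to 30000 bp with 20.4% and 23.3% at 60000 bp or more. The median width of all regions was 178 bp in the closest class, highest at 1000 to 2000 bp with 219 bp, and 191 bp in the last. Among the isolated regions alone, the length of the smaller gap had a Spearman rho of -0.0026 with width and 0.040 with peak value over 576 regions of 1 list. The 28 regions with at least 100 kb on both sides had a median width of 184.5 bp. Of them, 9 (32.1%) had a peak value of 18, beside 22.3% of all chromosomal regions, a difference that was not tested.

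**Figure D5:**
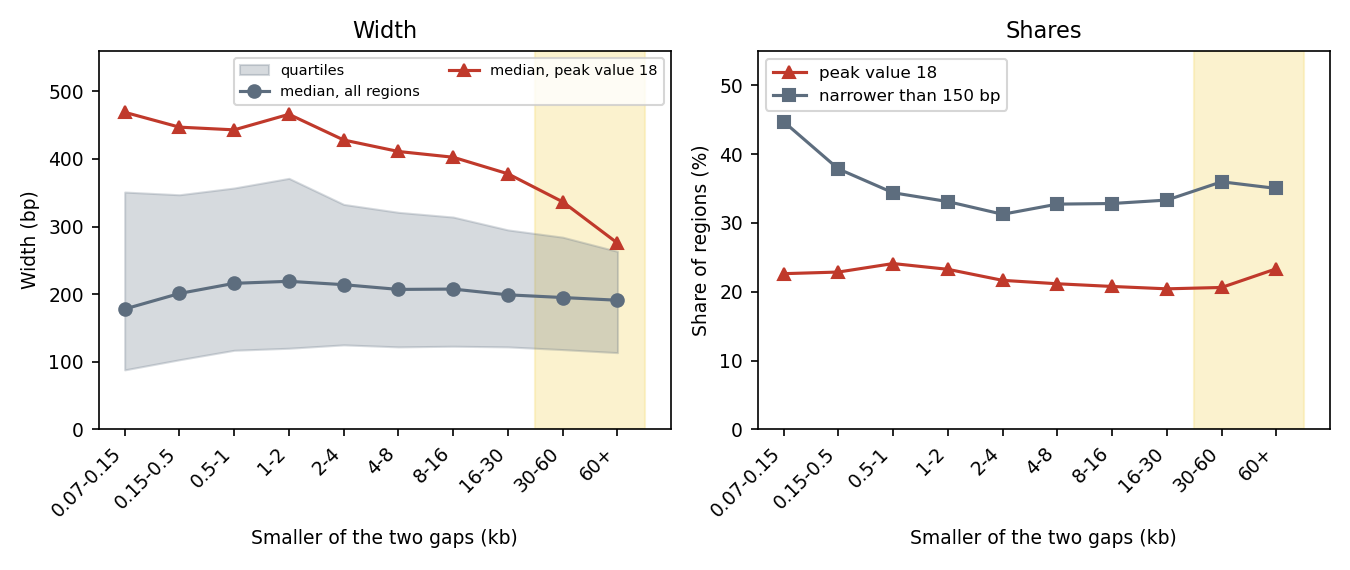
Width in bp (left: median and quartiles of all regions, and median of regions with a peak value of 18) and shares in percent (right) against the smaller of the 2 gaps in kb, on unequal classes. Isolated regions are the shaded classes. The median width at 18 is lowest in the last class, at 275.5 bp, while the share at 18 lies between 20.4% and 24.1%.

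Isolated regions in the middle of chromosomes had a higher median width than those toward the ends. The 366 in the inner 50% of the length had a median width of 207.5 bp, and the 210 in the outer parts 166 bp. The medians of other regions were 204 and 207 bp. The inner median exceeded the outer one on 10 of 12 chromosomes for isolated regions and on 2 of 12 for the others. For the others the inner and outer medians were equal on chromosomes 4 and 11. The exceptions among isolated regions were chromosome 5, with 204 and 207 bp, and chromosome 6, with 184.5 and 187 bp. Chromosome 1 had the widest split, 263.5 bp over 30 inner regions and 93 bp over 9 outer ones. Widths under 150 bp made up 30.6% of the inner and 44.8% of the outer isolated regions, against 35.8% and 35.2% of other regions. Mean peak values were 15.43 and 15.02 for isolated regions and 15.38 and 15.31 for others. This split was looked at after the values were seen, and the difference was not tested.

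Isolated regions were also set against their own surroundings. Against the other regions of the same 1 Mb bins, the ratio of median widths was 0.96 (mean log2 ratio -0.057 ± 0.095, SD, n = 12 chromosomes; exact sign-flip p = 0.0557, adjusted 0.247). The share at 18 differed by -3.41 percentage points (negative on 7 of 12 chromosomes, exact sign-flip p = 0.0991, adjusted 0.247), and the mean peak value by -0.14 (exact sign-flip p = 0.148, adjusted 0.247). The share under 150 bp differed by 0.24 percentage points (exact sign-flip p = 0.933, adjusted 0.933). None of the 5 quantities passed the test in this comparison, which does not show that they are equal. The width at equal peak value then changed its sign in the mean, at a mean log2 ratio of 0.0080 (exact sign-flip p = 0.743, n = 12 chromosomes, adjusted 0.928). It was negative on 7 of 12 chromosomes. Chromosomes 8 and 10 turned positive and chromosome 12 turned negative.

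The peak position lay on the lower-coordinate side in 432 of 576 isolated regions (75%) and in 73.7% of other regions. How the file reports a peak tied over several bases is not stated, so this share is given as a value only.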

How the data were processed

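The values are the authors' deposited coordinates and attributes in 1 list of regions for all 18 libraries, used without scaling. Reads were aligned with Bowtie2 2.2.3, per the submitters' processing notes. The sources used here do not give the genome build, read filters, region caller or how libraries were pooled, and coordinates are 1-based as deposited. The list carries no read counts, so depth is unknown. A gap is the start of the next region minus the end of the previous one minus 1. The list holds no sequence, and whether the gene table at hand shares its build with the list is not known, so no gene, motif or sequence is reported.

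For each chromosome with at least 10 isolated regions, which all 12 had, 5 quantities were compared between isolated and other regions: the log2 ratio of median widths, the same at equal peak value, the share under 150 bp, the mean peak value and the share at 18. Each had an exact permutation test that flips the sign of each chromosome's difference (two-sided, smallest p 0.000488 over 12 chromosomes), with Benjamini-Hochberg adjustment over the 5 and a threshold of 0.05. Intervals hold the mean differences that this test does not reject. The length of a chromosome is the end of its last region. Alternatives were other gap limits (20000 and 50000 bp), merged regions, minimum widths and peak values, other regions to compare with, and chromosomes left out. Regions named singly are the 5 most isolated, the 5 widest, the 5 on either side of the limit, the longest runs, and the fullest 1 Mb bin. A run of 4, 2 further bins and 4 narrow regions at 18 were added after their values were seen. The members and comparisons were chosen with earlier results of these data known. Python 3.11.15, NumPy 2.4.6, pandas 2.3.3 and matplotlib 3.10.9 were used.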

Additional observations from a re-analysis of the deposited data

How the results depend on the processing

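With a gap limit of 20000 or 50000 bp the number of isolated regions was 1318 or 189, and under the other alternatives run it lay between 456 and 769. The width ratio (mean log2 ratio over chromosomes) was -0.19 and passed the test after merging regions less than 150 bp apart. Such merging widens regions with close neighbours by construction. The ratio was also -0.19 and passed without regions under 100 bp, a setting that selects on the width tested. It was -0.12 and passed with the mean of log2 width. Against regions with both gaps under 1000 bp it was 0.017. The width at equal peak value passed in the same settings, at -0.10, -0.15 and -0.091, and without peak values under 14, at -0.087. Its mean turned to 0.0080 against the same 1 Mb bins, with 7 of 12 chromosomes negative. Chromosomes 8 and 10 turned positive there and chromosome 12 negative. Against regions with both gaps under 1000 bp the mean was 0.00070, with 5 of 12 negative. The difference in the share under 150 bp changed sign in 5 settings, to -0.63 and -3.22 percentage points at 20000 and 50000 bp, -0.27 without peak values under 14, -0.80 without chromosome 2 and -6.28 against regions with both gaps under 1000 bp. At 50000 bp, with 9 chromosomes, the differences in mean peak value and in the share at 18 changed sign as well, to 0.13 and 0.95 percentage points. The cause of these changes was not tested. The inner to outer contrast kept its direction in all 19 alternatives run for it, with a mean log2 ratio from 0.84 to 1.74. Leaving out single chromosomes changed no call, and the width ratio then lay between -0.11 and -0.052. No paired analysis was possible because the list holds no value per library. With no read depth, whether a gap holds weakly open chromatin below the list's own limit is unknown.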
